A study of Homo sapiens with 8 samples.

Results

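The genes that build the tight junctions, adherens junctions and desmosomes of epithelial cells were examined in DLD1 cells, an established human colorectal cancer line, after depletion of UHRF1 and treatment with trichostatin A (TSA). The set held 40 genes of the 36337 named on the array, chosen by symbol, with 55 of its 50599 probes. They were 17 claudins, 7 other tight junction genes (OCLN, MARVELD2, MARVELD3, F11R, TJP1, TJP3 and CGN), 4 adherens junction genes (CDH1, CDH3, CTNNA1 and CTNND1), 11 desmosome genes and plakins (JUP, DSP, DSG2, DSG3, DSC2, DSC3, PKP1, PKP2, PKP3, PPL and EVPL) and EPCAM. Of these, 25 genes had 1 probe and 15 had 2, and the brighter probe stood for the gene.

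The 8 arrays formed 4 groups of 2. Cells transfected with a control siRNA (siCONT) or with siUHRF1-1 or siUHRF1-2 were left for 48 h and then received ethanol (mock) or 300 nM TSA, an inhibitor of histone deacetylases, for 24 h. The groups were siCONT with mock, siUHRF1 with mock, siCONT with TSA and siUHRF1 with TSA, and the depleted groups held 1 array of each siRNA. UHRF1 is the protein that recruits the maintenance DNA methyltransferase to replicated DNA, and the comparisons asked how its loss and the inhibition of histone deacetylases changed RNA levels singly and together. The depletion was transient and was made in 1 cell line, and the sources used here do not say whether the paired siCONT arrays came from separate cultures.

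Tight junctions seal the space between neighbouring epithelial cells. Their strands are made of claudins, which decide what passes, and are tied to the actin skeleton by ZO proteins, among them the products of TJP1 and TJP3. Adherens junctions join cells through E-cadherin and the catenins. Desmosomes join them through desmogleins and desmocollins, which plakoglobin (JUP), plakophilins and desmoplakin (DSP) tie to keratin filaments.

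A level is the log2 intensity minus the 75th percentile of the array, so levels of different probes are not compared. Values for a gene are given in the order siCONT with mock (replicates 1 and 2), siUHRF1 with mock (siUHRF1-1 and siUHRF1-2), siCONT with TSA and siUHRF1 with TSA. On each array, 43.3% to 48.0% of probes were well above background. The brighter UHRF1 probe read 1.98 and 2.01 in siCONT with mock, 0.34 and −0.02 in siUHRF1 with mock, 1.04 and 1.01 in siCONT with TSA, and −1.56 and −2.14 in siUHRF1 with TSA. UHRF1 was thus lower on both depleted arrays of each treatment. By this probe, depletion changed it by −1.83 under mock and −2.87 under TSA. With TSA it changed by −0.97 in siCONT cells and −2.01 in depleted cells (limma adjusted p = 0.0175 and 0.00133). The groups with and without TSA therefore also differed in UHRF1 level. The difference between the siCONT arrays had an SD of 0.164 under mock and 0.156 under TSA (log2). Between the arrays of the different siUHRF1 siRNAs the SD was 0.489 and 0.422. The noise of repeated spots was taken as a variance, from 592 probes with 10 spots. Ratios to that noise were 1.08 to 1.18 for siCONT and 10.4 to 13.2 for siUHRF1, and they are not multiples of the SDs. The siCONT pairs were therefore counted as 1 sample in every mean, with no SD. The main limma fit still entered them as 2 arrays a group. Its standard errors and p-values thus take the small gap between siCONT arrays as a spread of replicates, and measure only the spread between these arrays. A gene was called higher or lower at an adjusted p under 0.05 in limma, with Benjamini-Hochberg adjustment over all probes tested, and a change of at least 2-fold. Beside a call stands the adjusted p of a fit in which the siCONT arrays of a treatment were averaged to 1 sample. Apart from the TJP1 interaction, changes that were not called carry no such value. Their p-values rest on the same small gap between siCONT arrays, so a low one does not make them firmer than the calls. Mock and TSA arrays filled different rows of the slide, so TSA and slide row cannot be told apart. The siCONT arrays filled columns 1 and 2 and the siUHRF1 arrays columns 3 and 4. Depletion and slide column therefore cannot be told apart either. All 8 epithelial markers checked (EPCAM, KRT8, KRT18, KRT19, VIL1, CDX2, CDH17 and LGALS4) were well above background on every array, while of 6 endothelial and 6 fibroblast markers none was, and of 6 leukocyte markers only CD14 and CD68 were. Above background on no array were 4 of the endothelial markers (CLDN5, KDR, PECAM1 and TEK), 2 of the fibroblast markers (COL1A2 and COL3A1) and 3 of the leukocyte markers (CD3E, ITGAM and PTPRC), and the rest were so on some arrays.

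Most of the set was above background in DLD1 cells. Of the 40 genes, 27 were well above background on all arrays, 1 (CLDN1) on some, and 12 on none. The 12 were CLDN5, CLDN6, CLDN8, CLDN9, CLDN10, CLDN11, CLDN14, CLDN16, CLDN18, DSC3, DSG3 and PKP1. CLDN5 is the claudin of endothelium, CLDN16 acts in the kidney, CLDN11 in myelin and testis, and CLDN18 in stomach and lung. DSG3, DSC3 and PKP1 are the desmosome isoforms of stratified epithelium, whereas DSG2, DSC2 and PKP2, the widely expressed isoforms, were above background on every array. The 17 probes of the 12 genes had levels between −6.13 and −3.35, and the dimmest probes well above background lay between −3.79 and −3.37. That band is no sharp limit of detection, as CLDN6 at −3.35 in siUHRF1-1 with TSA lay above it and was not well above background. Expression too low to be well above background would not be seen on these arrays.

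CLDN6, an embryonic claudin, stood out among them. It read −5.49 and −5.47 in siCONT with mock, −5.88 and −5.57 in siUHRF1 with mock, −5.39 and −4.99 in siCONT with TSA, and −3.35 and −3.52 in siUHRF1 with TSA. The arrays with both treatments were the brightest, but none was well above background, so CLDN6 was not tested and no fold is given.

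**Figure D1:**
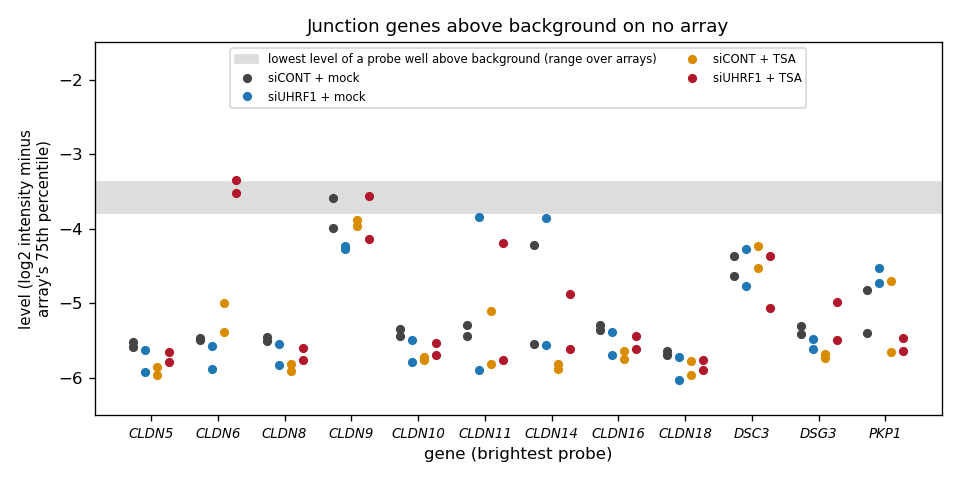
Level of the brightest probe of each of the 12 junction genes that were well above background on no array (log2 intensity minus the 75th percentile of the array). Each point is 1 array, coloured by group, and the grey band spans the dimmest probes well above background, from −3.79 to −3.37. The CLDN6 points of siUHRF1 with TSA, −3.35 and −3.52, lie apart from the other 6 arrays.

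The other 28 genes were tested in every comparison, and 8 of them were called in at least 1. These were CLDN1, CLDN2, CLDN23, TJP1, TJP3, PPL, EVPL and PKP3. The 20 tested genes called in none had changes between −0.97 and 0.87 (log2) in the 5 comparisons of group means. As RNA was measured in bulk, fewer cells expressing a gene and less RNA per cell cannot be told apart.

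**Figure D2:**
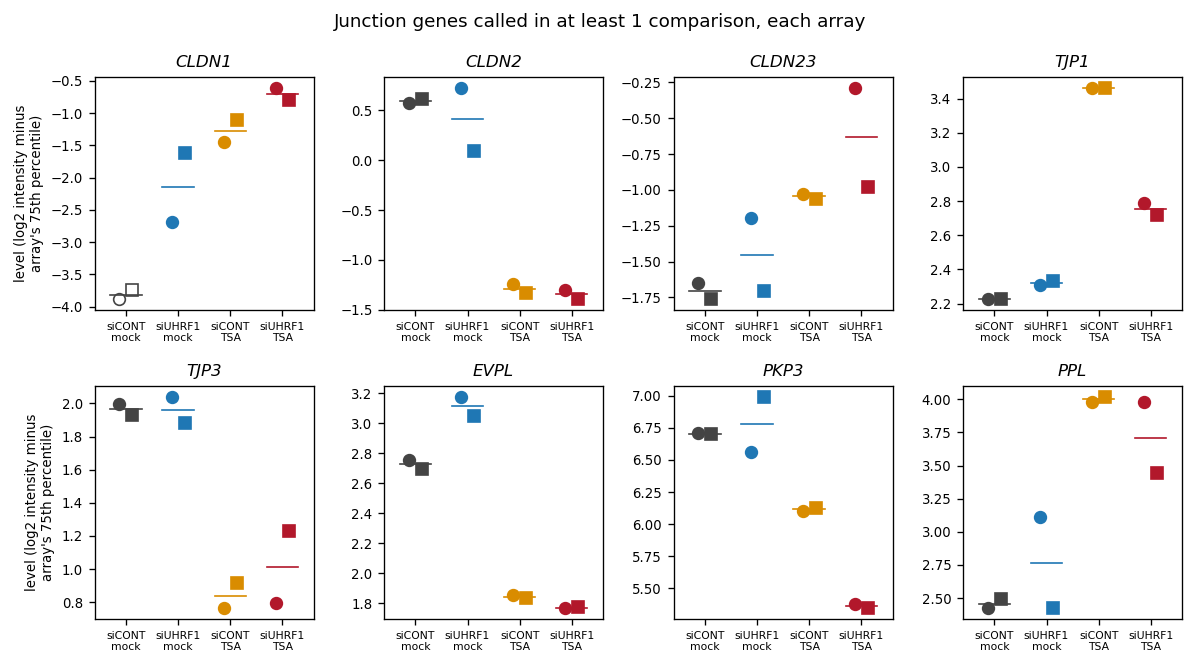
Level (log2 intensity minus the 75th percentile of the array) of the 8 junction genes called in at least 1 comparison, on each array. Circles are siCONT replicate 1 or siUHRF1-1, squares are siCONT replicate 2 or siUHRF1-2, open symbols are not well above background, and bars are means of the arrays. CLDN1, CLDN23, TJP1 and PPL were higher with TSA and CLDN2, TJP3, EVPL and PKP3 lower, on both arrays of each TSA group against both siCONT arrays with mock. The vertical axes differ between panels and do not start at 0.

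Among the claudins, CLDN1 and CLDN2 moved in opposite directions. CLDN1, a sealing claudin (probe at chr3:190024001-190024060, hg19), read −3.89 and −3.74 in siCONT with mock, where it was not well above background. It read −2.69 and −1.62 in siUHRF1 with mock, −1.45 and −1.10 in siCONT with TSA, and −0.61 and −0.80 in siUHRF1 with TSA. The 4 groups did not overlap, and the arrays with both treatments were the brightest. Against siCONT with mock, the group mean of CLDN1 rose at least 2.37-fold with depletion (limma adjusted p = 0.0416), at least 4.34-fold with TSA (adjusted p = 0.00316) and at least 6.48-fold with both (adjusted p = 0.00102). These bounds hold for means and not for each array. With the siCONT arrays as 1 sample, the adjusted p values were 0.416, 0.0973 and 0.0183. The fitted changes were 1.66, 2.54 and 3.11, each with a standard error of 0.345. Within depleted cells, TSA changed CLDN1 by 1.45 ± 0.345 (SE; adjusted p = 0.0189, and 0.0608 with siCONT as 1 sample). Without siUHRF1-1 with mock that change was 0.91 (adjusted p = 0.0218), under 2-fold. CLDN1 passed the filter in the comparisons with siCONT under mock only through the group in which it was brighter. Its call under depletion alone was lost in 11 of the 19 alternatives it was tested in, among them each fit without a siCONT array and the fit with no filter on dim probes.

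CLDN2, which forms a pore for cations and water (probe at chrX:106174032-106174091, hg19), read 0.58 and 0.61 in siCONT with mock and 0.73 and 0.09 in siUHRF1 with mock. It read −1.25 and −1.33 in siCONT with TSA, and −1.30 and −1.40 in siUHRF1 with TSA. The mock and TSA arrays did not overlap, with or without depletion. CLDN2 fell by 1.88 ± 0.212 (SE, log2) with TSA in siCONT cells (limma adjusted p = 0.0018, and 0.0941 with siCONT as 1 sample). It fell by 1.76 with TSA in depleted cells (adjusted p = 0.00179 and 0.0169) and by 1.94 with both treatments against siCONT with mock (adjusted p = 0.000964 and 0.0258). Depletion changed it by −0.19 under mock and −0.06 under TSA, neither past the test (adjusted p = 0.576 and 0.864).

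The sequences before the annotated starts of CLDN1 and CLDN2, the tested claudins with the largest changes, are shown with their CpG sites marked. CLDN6 is added as the dim claudin that read brightest with both treatments. Each line holds the 250 bases before a start, 5′ to 3′, from RefSeq (GRCh38.p14, not the hg19 of the probe positions), with every CpG in capitals.
CLDN1 (chr3:190322447-190322696, minus strand): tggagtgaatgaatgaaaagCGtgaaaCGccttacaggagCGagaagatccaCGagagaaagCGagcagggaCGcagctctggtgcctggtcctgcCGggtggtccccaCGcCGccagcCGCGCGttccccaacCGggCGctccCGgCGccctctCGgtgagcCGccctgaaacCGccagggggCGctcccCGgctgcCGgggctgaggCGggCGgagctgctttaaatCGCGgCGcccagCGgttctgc
CLDN2, first start (chrX:106899914-106900163, plus strand): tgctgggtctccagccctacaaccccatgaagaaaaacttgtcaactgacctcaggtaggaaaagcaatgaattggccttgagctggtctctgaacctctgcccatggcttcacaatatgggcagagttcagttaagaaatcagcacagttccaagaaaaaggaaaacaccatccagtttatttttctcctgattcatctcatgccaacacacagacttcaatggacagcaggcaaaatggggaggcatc
CLDN2, second start (chrX:106918110-106918359, plus strand): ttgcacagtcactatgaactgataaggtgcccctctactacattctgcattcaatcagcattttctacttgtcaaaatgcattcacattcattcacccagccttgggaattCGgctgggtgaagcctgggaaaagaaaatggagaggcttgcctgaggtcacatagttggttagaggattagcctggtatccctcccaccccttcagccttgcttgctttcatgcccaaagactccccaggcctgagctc
CLDN6 (chr16:3018184-3018433, minus strand): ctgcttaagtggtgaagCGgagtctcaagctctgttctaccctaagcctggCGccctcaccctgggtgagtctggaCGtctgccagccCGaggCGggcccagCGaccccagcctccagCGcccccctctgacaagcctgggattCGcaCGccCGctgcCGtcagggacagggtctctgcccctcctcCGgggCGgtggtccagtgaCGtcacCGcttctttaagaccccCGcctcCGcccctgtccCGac

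CLDN1 had 28 CpG in this window, a count reached by 15.9% of the 35116 such windows of all genes, whose median was 11. The 2 starts of CLDN2 had 0 and 1, and CLDN6 had 18. The genes shown were picked by their levels and changes, and a link between CpG count and change was not tested. RefSeq windows were matched for 26 of the 40 genes, with 44 starts in all. The highest CpG count per gene ran from 1 to 39 (median 19.5) in the 16 matched genes above background on all arrays and from 4 to 29 (median 17) in the 9 above background on none. The E-box CACCTG, searched on both strands, was in 11 of the 44 windows and in 17.5% of all windows, and AACCGGTT was in none of the 44 and in 0.117% of all. These are counts of letters. DNA methylation was not analysed here, and the arrays do not show which start was used.

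CLDN23 was the other called claudin. It read −1.65 and −1.77 in siCONT with mock, −1.19 and −1.71 in siUHRF1 with mock, −1.03 and −1.07 in siCONT with TSA, and −0.29 and −0.98 in siUHRF1 with TSA. It rose by 1.07 ± 0.269 (SE, log2) with both treatments (limma adjusted p = 0.0191), but the adjusted p was 0.145 with siCONT as 1 sample, and without siUHRF1-1 with TSA the change was 0.73 (adjusted p = 0.0632). CLDN3 and CLDN4, claudins abundant in intestinal epithelium and its tumours, were not called. CLDN3 read 5.06 and 5.13 in siCONT with mock against 4.16 and 4.10 with TSA (change −0.97, adjusted p = 0.032), just under 2-fold. CLDN7 had a level of 5.47 and 5.39 in siCONT with mock against 4.82 and 4.84 in siUHRF1 with mock. Its probes changed by −0.60 (adjusted p = 0.0397) and −0.87 (adjusted p = 0.012) with depletion under mock and by −0.79 (adjusted p = 0.0122) and −0.71 (adjusted p = 0.0113) under TSA, all under 2-fold. For CLDN4, CLDN12 and CLDN15 no comparison passed the adjusted p. The probes of CLDN12 had opposite signs with TSA in siCONT cells (0.40 and −0.35, adjusted p = 0.498 and 0.537), and the dimmer probe of CLDN4 was above background on no array.

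Among the other tight junction genes, the ZO scaffold genes TJP1 and TJP3 also moved in opposite directions with TSA. TJP1, which encodes ZO-1 (probe at chr15:29992527-29992586, hg19), read 2.23 and 2.22 in siCONT with mock and 2.31 and 2.33 in siUHRF1 with mock. It read 3.46 and 3.46 in siCONT with TSA but 2.79 and 2.72 in siUHRF1 with TSA. The siCONT arrays with TSA were the brightest, and the groups did not overlap. TJP1 rose by 1.24 ± 0.105 (SE, log2) with TSA in siCONT cells (limma adjusted p = 0.000797, and 0.112 with siCONT as 1 sample). In depleted cells the change with TSA was 0.44, under 2-fold (adjusted p = 0.0199). The difference between these changes, the interaction, was −0.80 ± 0.148 (adjusted p = 0.0384), and it was the only interaction among the 28 genes with an adjusted p under 0.05. With siCONT as 1 sample its adjusted p was 0.61.

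TJP3, which encodes ZO-3 (probe at chr19:3746516-3746575, hg19), read 2.00 and 1.93 in siCONT with mock, 2.04 and 1.88 in siUHRF1 with mock, 0.76 and 0.91 in siCONT with TSA, and 0.79 and 1.23 in siUHRF1 with TSA. All TSA arrays were below all mock arrays. TJP3 fell by 1.13 ± 0.173 (SE, log2) with TSA in siCONT cells (limma adjusted p = 0.00474, and 0.176 with siCONT as 1 sample). Its changes of −0.95 in depleted cells and −0.95 with both treatments were under 2-fold (adjusted p = 0.0074 and 0.00603). Under 2 of the other scalings or background corrections its change in siCONT cells was −0.99 and −0.93, just under 2-fold.

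The other 5 genes were not called. They were OCLN (occludin), MARVELD2 (tricellulin, at the corners where several cells meet), MARVELD3, the adhesion molecule F11R (JAM-A) and the adaptor CGN (cingulin). OCLN read 0.45 and 0.59 in siCONT with mock against 1.22 and 1.30 with TSA, a change of 0.74 with an adjusted p of 0.0067, and its other probe changed by 0.59 (adjusted p = 0.0245). MARVELD2 changed by 0.69 in the same comparison (adjusted p = 0.0346), and its other probe by 0.17 (adjusted p = 0.665). The probes of MARVELD3 disagreed with both treatments, at 0.65 (adjusted p = 0.0423) and −0.23 (adjusted p = 0.395). For CGN and F11R no comparison of the brighter probe passed the adjusted p.

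None of the 4 adherens junction genes was called in any comparison. CDH1, which encodes E-cadherin, read 5.37 and 5.41 in siCONT with mock, 5.49 and 5.66 in siUHRF1 with mock, 5.77 and 5.77 in siCONT with TSA, and 5.49 and 5.61 in siUHRF1 with TSA. The arrays spanned less than 2-fold in all. Its largest change was 0.38 ± 0.119 (SE, log2) with TSA in siCONT cells (limma adjusted p = 0.0471). CDH3, which encodes P-cadherin, changed by −0.62 with TSA in siCONT cells (adjusted p = 0.00768) and by −0.51 with both treatments (adjusted p = 0.011), under 2-fold. For CTNNA1 (alpha-catenin) no change passed the adjusted p. For CTNND1 (p120-catenin) the change with both treatments was −0.68 (adjusted p = 0.0327) by the brighter probe and −0.66 (adjusted p = 0.0453) by the other. With TSA in siCONT cells its probes gave −0.40 (adjusted p = 0.154) and −0.94 (adjusted p = 0.0178).

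EPCAM, the adhesion molecule that marks epithelial cells and binds CLDN7, was not called either. It read 7.34 and 7.36 in siCONT with mock, 7.40 and 7.10 in siUHRF1 with mock, 7.35 and 7.33 in siCONT with TSA, and 7.22 and 6.76 in siUHRF1 with TSA. Its changes lay between −0.36 and −0.01, and none passed the test (adjusted p from 0.159 to 0.969).

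In the desmosome group the plakins PPL and EVPL moved in opposite directions with TSA. Periplakin and envoplakin, their products, link desmosomes to keratin filaments and are partners in the cornified envelope of skin. PPL (probe at chr16:4933068-4933127, hg19) read 2.42 and 2.49 in siCONT with mock, 3.11 and 2.42 in siUHRF1 with mock, 3.98 and 4.02 in siCONT with TSA, and 3.98 and 3.44 in siUHRF1 with TSA. All TSA arrays were above all mock arrays. PPL rose by 1.54 ± 0.27 (SE, log2) with TSA in siCONT cells (limma adjusted p = 0.00717) and by 1.25 with both treatments (adjusted p = 0.0111), and the adjusted p values with siCONT as 1 sample were 0.172 and 0.106. Without siUHRF1-1 with TSA the change with both treatments was 0.98 (adjusted p = 0.0513).

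EVPL (probe at chr17:74003008-74003067, hg19) read 2.76 and 2.70 in siCONT with mock, 3.18 and 3.05 in siUHRF1 with mock, 1.85 and 1.84 in siCONT with TSA, and 1.77 and 1.77 in siUHRF1 with TSA. The TSA arrays lay below the mock arrays in both cell states. EVPL fell by 1.35 ± 0.111 (SE, log2) with TSA in depleted cells (limma adjusted p = 0.00053, and 0.0153 with siCONT as 1 sample). With TSA in siCONT cells and with both treatments it changed by −0.88 and −0.96, under 2-fold (adjusted p = 0.00245 and 0.00117).

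PKP3, a plakophilin of both simple and stratified epithelia (probe at chr11:404848-404907, hg19), read 6.71 and 6.70 in siCONT with mock, 6.56 and 6.99 in siUHRF1 with mock, 6.11 and 6.13 in siCONT with TSA, and 5.38 and 5.34 in siUHRF1 with TSA. The arrays with both treatments were the dimmest, by more than the spread within any group. PKP3 fell by 1.42 ± 0.16 (SE, log2) with TSA in depleted cells (limma adjusted p = 0.00145, and 0.0201 with siCONT as 1 sample). It fell by 1.35 with both treatments (adjusted p = 0.00131 and 0.0428). In siCONT cells the change with TSA was −0.59 (adjusted p = 0.0304), and the interaction of −0.83 did not pass the test (adjusted p = 0.0818).

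The core desmosome genes were not called. DSP changed by −0.70 with both treatments (limma adjusted p = 0.0134) and by −0.83 with TSA in depleted cells (adjusted p = 0.00879). Its other probe changed by −0.67 (adjusted p = 0.0574) and −0.86 (adjusted p = 0.0308). JUP, whose product sits in desmosomes and adherens junctions, changed by −0.56 with both (adjusted p = 0.0126). The desmosomal cadherins DSG2 and DSC2 and the plakophilin PKP2 had changes between −0.49 and 0.48, none past the adjusted p. Of the 8 desmosome genes tested, 8 had a negative interaction (median −0.29, against 0.06 over all probes), but none passed the adjusted p. The number was 6 or 7 under 2 of the other scalings. The interaction was also negative in 3 of the 4 adherens junction genes (median −0.295) and in 19 of all 28 genes (median −0.214). It was negative in 4 of 8 claudins and 3 of 7 other tight junction genes. The share of all probes with a negative interaction was not counted.

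**Figure D3:**
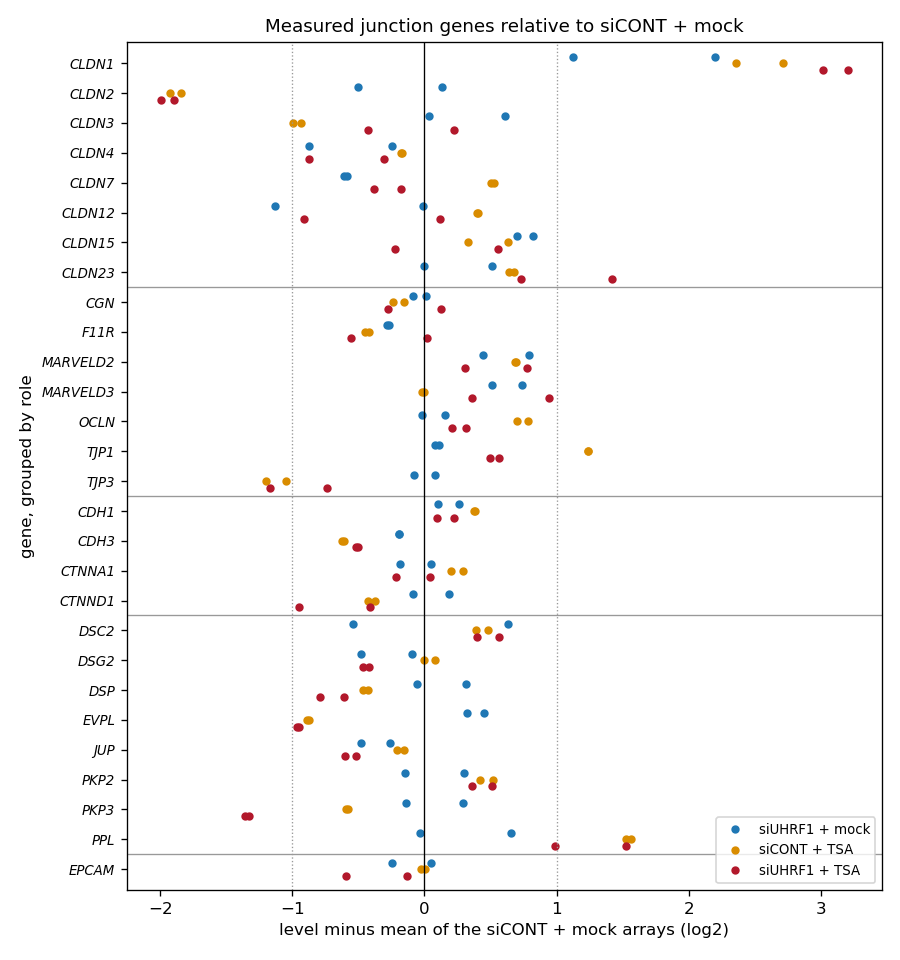
Level of each of the 28 tested junction genes on the 6 arrays outside siCONT with mock, minus the mean of the siCONT arrays with mock (log2). Points are single arrays coloured by group, solid lines part the role groups, and dotted lines mark 2-fold. CLDN1 lies farthest to the right and CLDN2 farthest to the left, while the points of CDH1 and EPCAM stay inside the 2-fold lines. CLDN1 was not well above background in siCONT with mock, so its distances are not bounds.

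The counts over the whole set were small and close to or under the share of all probes. With depletion under mock, 1 of 28 genes (CLDN1) was called higher and none lower, against 3.13% of all 22396 probes tested called higher and 0.987% lower. Of the 28, 7 had an unadjusted p under 0.05 in limma. The share of all probes past that threshold was not counted in any comparison, so such numbers do not show an excess in the set. The median change of the set was 0.06, against −0.10 over all probes. CLDN1 entered this test only through the group in which it was brighter, and the count was 0 with no filter on dim probes and when probes dim on any array were left out. With siCONT as 1 sample no gene of the set was called, and of all probes 0.0223% (5 of 22396) were called higher and 0 lower.

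With TSA in siCONT cells, 3 genes (CLDN1, TJP1 and PPL) were called higher and 2 (CLDN2 and TJP3) lower. Over all probes 10.4% were called higher and 8.22% lower. The median was 0.01, against −0.11 over all probes. With siCONT as 1 sample no gene of the set was called, against 1.26% of all probes higher and 0.297% lower.

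With both treatments against siCONT with mock, 3 genes (CLDN1, CLDN23 and PPL) were called higher and 2 (CLDN2 and PKP3) lower, against 14.5% of all probes higher and 11.1% lower. The median was −0.19, against −0.14 over all probes. With siCONT as 1 sample, CLDN1 was called higher and CLDN2 and PKP3 lower, against 9.74% of all probes higher and 5.69% lower in that fit. When arrays were scaled to their medians, 1 gene was called higher and 6 lower, against 10.9% and 23.6% of all probes, whose median was −0.54.

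With depletion under TSA none of the 28 was called, against 5.39% of all probes higher and 2.87% lower. Of the 28, 8 had an unadjusted p under 0.05 in limma, with no share of all probes to set beside it. The t-test named in the study's methods called none. The largest change past the adjusted p was −0.79, in CLDN7. The median was −0.24, against 0.00 over all probes, and 19 of the 28 changes were negative. When arrays were scaled to their medians, 3 genes were called lower and none higher, against 8.93% of all probes lower and 3.66% higher.

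With TSA in depleted cells, CLDN1 was called higher and CLDN2, EVPL and PKP3 lower, against 11.7% of all probes higher and 9.01% lower. With siCONT as 1 sample the same 3 were called lower and none higher, against 7.56% of all probes lower and 10.1% higher in that fit. The median was −0.03, against −0.04 over all probes. When arrays were scaled to their medians, 1 gene was called higher and 6 lower, against 8.51% and 19.7% of all probes. No interaction was called, against 2.83% of all probes with a positive and 2.07% with a negative call. Of the 28, 6 had an unadjusted p under 0.05 for the interaction in limma, again with no share of all probes to set beside it.

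The TSA comparisons in siCONT and in depleted cells share no arrays. Their changes had the same sign in 21 of the 28 genes, with a Pearson correlation of 0.873 across genes, which share the slide rows and are not independent replicates. CLDN1 and CLDN2 were called in both, which is 2 of the 5 genes called in siCONT cells and 2 of the 4 called in depleted cells. The depletion comparisons under mock and under TSA also share no arrays, but they share the slide columns. They had the same sign in 13 of the 28 genes, with a Pearson correlation of 0.533 across genes. Neither signs nor correlations were counted over all probes, so these numbers do not show a trait of the set. The gap between the siUHRF1-1 and siUHRF1-2 arrays of a treatment had a median of 0.266 under mock and 0.254 under TSA over the 27 genes above background on all arrays, against 0.0559 and 0.0395 between the siCONT arrays. The largest gaps were 1.17 in DSC2 under mock and 1.03 in CLDN12 under TSA.

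**Figure D4:**
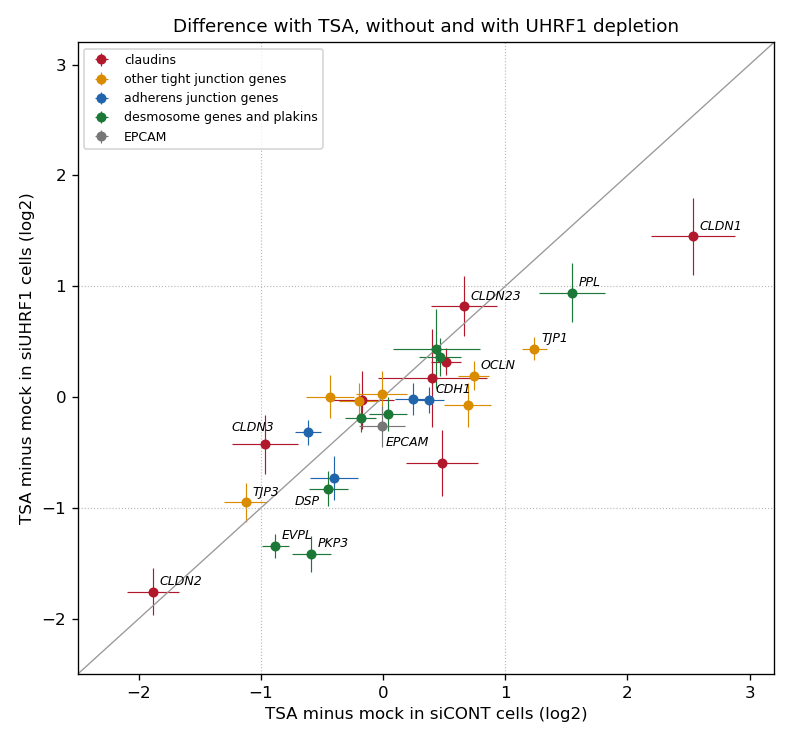
Change with TSA in siCONT cells (horizontal axis, log2) and in siUHRF1 cells (vertical axis, log2) of the 28 tested junction genes, with bars of 1 standard error from limma, coloured by role. The diagonal marks equal changes and the dotted lines 2-fold. CLDN2 lies near the diagonal at the lower left, TJP1 below it at 1.24 and 0.44, and PKP3 below it at −0.59 and −1.42.

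Other genes of the junctions form a list of 42 that includes the nectins, polarity proteins and angulins. Of 34 tested with both treatments, 2 were called higher and 2 lower (5.88% each), against 14.5% and 11.1% of all probes. CGNL1 (2.00, a paralog of cingulin, adjusted p = 0.00505) and AMOT (1.14, an angiomotin, adjusted p = 0.00503) were called higher. The change of AMOT was under 2-fold after median scaling (0.74) and with normexp background correction (0.655). PVRL4 (−1.68, nectin-4, adjusted p = 0.0307) and CDH17 (−1.61, LI-cadherin of intestine, adjusted p = 0.000632) were called lower. Only CDH17 kept its call with siCONT as 1 sample (adjusted p = 0.0267). CDH17 read 1.79 and 1.80 in siCONT with mock and 0.18 and 0.18 with both treatments. Without siUHRF1-2 with TSA, AMOT changed by 0.96, under 2-fold, and PVRL4 by −1.09 (adjusted p = 0.131). The call of AMOT was also lost without siCONT replicate 2 with mock (0.92), and that of PVRL4 without any 1 of the siCONT arrays (adjusted p = 0.054 to 0.11).

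Of 20 transcription and splicing regulators of epithelial genes, 17 were tested with both treatments, and 2 were called higher and 5 lower, or 11.8% and 29.4%, against 14.5% and 11.1% of all probes. Among the lower ones were OVOL1, ESRP1, a splicing regulator of epithelial cells, and EHF, an epithelial ETS factor. OVOL1 changed by −2.16 (adjusted p = 0.0197), ESRP1 by −2.09 (adjusted p = 0.000202) and EHF by −1.94 (adjusted p = 0.000595). ESRP1 read 1.66 and 1.69 in siCONT with mock, 1.83 and 1.61 in siUHRF1 with mock, 0.35 and 0.25 in siCONT with TSA, and −0.51 and −0.32 with both. The call of OVOL1 was lost without either siCONT array with mock and without siUHRF1-2 with TSA (adjusted p = 0.0762, 0.0789 and 0.102).

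ZEB1, a repressor of CDH1, read −4.38 and −3.54 in siCONT with mock, where it was not well above background. It read −2.88 and −1.86 in siUHRF1 with mock, −2.71 and −2.28 in siCONT with TSA, and −2.03 and −2.08 with both. The mean level with both treatments was at least 2.54-fold higher (limma adjusted p = 0.011), but ZEB1 entered the test only through the group in which it was brighter. With normexp background correction the change of ZEB1 was 0.36, under 2-fold (limma adjusted p = 0.106). Its adjusted p was 0.0592 without siCONT replicate 1 with mock and 0.0516 without siUHRF1-1 with TSA. SNAI1, another such repressor, read −1.71 and −1.56 in siCONT with mock, −1.20 and −1.70 in siUHRF1 with mock, −2.86 and −3.23 in siCONT with TSA, and −0.19 and −0.94 with both. It fell by 1.41 with TSA alone (adjusted p = 0.0135) and changed by 1.08 with both treatments (adjusted p = 0.0271). The change with both treatments was under 2-fold after median scaling (0.67), quantile normalization (0.945) and normexp background correction (0.565). Without siUHRF1-1 with TSA the latter change was 0.70 (adjusted p = 0.099), and without either siCONT array with mock its adjusted p was 0.118 and 0.0849.

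With siCONT as 1 sample, of the 7 called regulators ESRP1 (adjusted p = 0.0127) and EHF (adjusted p = 0.0211) kept the call and the other 5 did not. CDH1 was not called in the same comparison (0.16, adjusted p = 0.31).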

How the data were processed

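RNA of DLD1 cells was measured on 8 single-colour Agilent arrays. The deposited files hold, per the file headers, the background-subtracted processed intensity (linear) of every spot, which the authors made with Agilent Feature Extraction 10.7.3.1. A table of the authors' values per spot held the same intensities. Of 62976 spots on an array, 58717 held non-control probes, 50599 in number. Outlier spots were left out and spots of a probe averaged. There were no saturated spots. A single slide, scanned once, carried all arrays. The 75th percentile of intensity ran from 137 to 189.

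Levels, the log2 intensity minus the 75th percentile of the array, entered lmFit and eBayes of limma 3.58.1 (R 4.3.3) with 4 group means, 8 arrays, 4 residual degrees of freedom and a prior of 2.17. Tests were two-sided. A probe was tested where some group compared had it well above background on both its arrays. The limma script was tested on simulated data. A group with no array well above background has only a bound, set from the dimmest probe well above background on each array and taken between group means. Some probes above that dimmest level were not well above background, so the bounds are approximate. Fitted changes of such genes are not bounds. The members and gene lists were chosen with earlier results of these data known. All 40 genes are accounted for, those called are described on every array, and of the other lists at most the 4 largest calls in a direction are named. Some genes of those lists are not reported here. Numbers of arrays limit the precision. The replicate numbers were not taken to pair arrays, as deviations correlated between −0.0563 and 0.0743 in all pairs of groups except the siUHRF1 groups, which share siRNAs (0.337). Promoter sequences came from RefSeq (GRCh38.p14).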

Additional observations from a re-analysis of the deposited data

Results flagged for a closer look

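The change of TJP1 with TSA differed between siCONT and UHRF1-depleted cells by the interaction term, at −0.80 ± 0.148 (SE, log2; limma adjusted p = 0.0384), in the same direction for both siRNAs. The levels were 3.46 and 3.46 in siCONT with TSA against 2.79 and 2.72 in siUHRF1 with TSA. Its adjusted p over the alternatives ran from 0.0104 to 0.61, and it was above 0.05 when a siCONT array was left out (0.163 to 0.181), without siUHRF1-1 with TSA (0.052) and with the replicate block (0.0705).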

How the results depend on the processing

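The 15 calls of single genes kept their direction in every alternative in which they were tested. Of the 15, 6 kept the call when the siCONT arrays of a treatment were averaged to 1 sample, 9 with normexp background correction, and between 11 and 15 when 1 array was left out. With the fold minimum kept, the number of the 28 genes called (1 with depletion under mock, 5 with TSA in siCONT, 5 with both treatments, 0 with depletion under TSA, 4 with TSA in depleted cells and 0 for the interaction) was 1, 5, 7, 3, 7 and 2 after median scaling and 0, 3, 3, 0, 3 and 0 after normexp. It was 0, 0, 3, 0, 3 and 0 with siCONT as 1 sample. With no filter on dim probes it was 0 for depletion under mock and 1 for depletion under TSA, and with probes above background on all arrays, a set without CLDN1, it was 0 for depletion under mock. The t-test of the study's methods called 0 with depletion under mock, and after adjustment 3 with both treatments and 0 with TSA in depleted cells. Leaving out 1 array gave 0 to 1, 5 to 5, 3 to 6, 0 to 0, 3 to 7 and 0 to 2. Without siUHRF1-2 with mock or without siUHRF1-2 with TSA the count for TSA in depleted cells was 7, without siUHRF1-1 with mock 2 interactions were called, and without siUHRF1-1 with TSA 3 genes were called with both treatments. The replicate block gave 1, 5, 5, 0, 4 and 0. Its numbers name the same siRNA in both siUHRF1 groups, while the siCONT arrays share only a number. The cause of these shifts was not tested. The share of all probes was given only for the main fit, for siCONT as 1 sample and in part for median scaling. Without that share, a rise or fall in the other alternatives, including the fits without 1 array, is not a result about the set. Median scaling moved the median change of all probes to −0.54 with both treatments, −0.43 with TSA in depleted cells and −0.35 with depletion under TSA. Over the 5 background corrections and scalings, the set's median with both treatments ran from −0.59 to 0.06, beside −0.54 to 0.10 over all probes.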
